A study of Mus musculus with 10 samples.

Results

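CDK inhibitors are proteins that bind cyclin-dependent kinases and halt the cell cycle, and p53 is the transcription factor that turns on several of them after damage or stress. The 10 genes described here are 7 CDK inhibitor genes (Cdkn1a, Cdkn1b, Cdkn1c, Cdkn2a, Cdkn2b, Cdkn2c and Cdkn2d), the p53 gene Trp53, and the p53 targets Mdm2 and Ccng1. They were taken by symbol from the 22329 genes of the deposited table, and all 10 had a row. The choice used no measured value of the comparison, but it was made with earlier results of these data known.

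The samples were 10 subcutaneous tumours of B16F10, a mouse melanoma line, grown from injected cells in C57BL6/J mice. Every tumour received a single intratumoral dose of 80 µg mRNA and was collected 7 days later. In 5 control tumours, libraries 1 to 5, the mRNA encoded luciferase. In the other 5, libraries 6 to 10, the dose combined mRNAs, 20 µg of each, for mouse single-chain IL-12, IL-15sushi, GM-CSF and IFN alpha. The labels give no age, sex or batch, and no untreated tumour was analysed here. Values are TPM, a share of all transcripts that is corrected for transcript length, so levels can be set side by side between genes. TPM keep no sequencing depth, so the depth is unknown.

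The 7 inhibitors form 2 families. The CIP/KIP proteins p21 (Cdkn1a), p27 (Cdkn1b) and p57 (Cdkn1c) bind cyclin-CDK complexes of several kinds, while the INK4 proteins p16 (from Cdkn2a), p15 (Cdkn2b), p18 (Cdkn2c) and p19 (Cdkn2d) bind CDK4 and CDK6. Cdkn2a also encodes ARF, which restrains MDM2. MDM2 is a ubiquitin ligase that marks p53 for destruction, and since p53 activates Mdm2, the 2 form a feedback loop. Much of the control of p53 and p27 acts on the proteins, which RNA levels do not show. The comparison asks whether these genes rose in tumours in which genes of cell division fell. Mdm2 is among them as a p53 target, while its product acts against p53.

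Promoter windows show which motifs stand near the starts of these genes. RefSeq windows of 300 bases on GRCm38.p6, with 250 bases before a transcript start and 50 after it, were at hand for 9 of the 10 genes, 12 windows in all, and Cdkn1c had none. They were searched on both strands for the p53 consensus decamer, the block of which p53 binding sites hold a pair. The 250 bases before the start are printed for Cdkn1a, at the upstream of its 2 starts, for Mdm2 and for Ccng1, with exact matches to the decamer in capitals.
Cdkn1a, chr17:29090729-29090978, plus strand: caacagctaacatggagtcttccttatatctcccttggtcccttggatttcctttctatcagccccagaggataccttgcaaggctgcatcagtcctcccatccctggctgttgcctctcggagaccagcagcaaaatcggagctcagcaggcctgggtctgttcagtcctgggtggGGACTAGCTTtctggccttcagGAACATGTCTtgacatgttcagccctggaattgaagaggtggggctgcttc
Mdm2, chr10:117710759-117711008, minus strand: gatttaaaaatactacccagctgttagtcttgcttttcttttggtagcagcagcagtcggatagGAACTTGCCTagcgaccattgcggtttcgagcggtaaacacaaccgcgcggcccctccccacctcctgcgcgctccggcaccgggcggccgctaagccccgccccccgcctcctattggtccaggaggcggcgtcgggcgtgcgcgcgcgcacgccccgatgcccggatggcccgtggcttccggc
Ccng1, chr11:40755287-40755536, minus strand: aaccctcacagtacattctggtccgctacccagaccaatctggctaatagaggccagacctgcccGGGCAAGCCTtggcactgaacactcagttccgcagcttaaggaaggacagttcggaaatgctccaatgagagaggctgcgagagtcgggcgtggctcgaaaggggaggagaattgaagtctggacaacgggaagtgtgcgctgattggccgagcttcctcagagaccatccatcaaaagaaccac

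The decamer stood in 5 of the 12 windows, those of Cdkn1a, Mdm2, Ccng1, Trp53 and Cdkn2d, and in 8.36% of all 32851 mouse windows. The upstream Cdkn1a window held a pair of exact decamer matches 12 bases apart. Directly after the second match, with no bases between, stands tgacatgttc. It differs from the decamer only at its first base, t in place of a or g, and the exact search left it unmarked. Which of these stretches p53 binds was not tested. A pair with a spacer of up to 13 bases occurred in 24 windows of the whole table, 0.0731%. The interferon-gamma-activated motif TTCNNNGAA was in 0 of the 12 windows and in 8.30% of all, and the interferon-stimulated motif, GAAA and again GAAA with any 2 bases between, in 0 of 12 and 3.44% of all. TTTGAA, the cell cycle homology region found upstream of many mitotic genes, stood in the Cdkn2b window and in 17.9% of all. CCAAT stood in 7 of the 12 windows and in 37.4% of all. The E2F motif, TTTCCCGC or TTTGGCGC, stood in 1 of the 12, a Cdkn2a window, and in 1.56% of all. A match is a stretch of letters, not a binding site, and a window without one says nothing of sites elsewhere.

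Libraries did not all lie with their group. Across the tested genes, which are not independent replicates, the mean r of library 10 was 0.930 to the controls but 0.811 to the other cytokine mRNA tumours. Mitochondrial genes held 16.2 to 27.9% of the TPM in control and 4.44 to 19.2% in cytokine mRNA tumours. Ribosomal protein genes, 68 in all, scattered around their control means by 1.64 and 2.20 (SD, log2) in libraries 6 and 7, against 0.264 to 0.708 in the other 8. The mean log2(TPM + 1) of 10 melanocyte lineage genes, the markers of the grafted line, was lowest in library 7, at 2.77, followed by library 1 of the controls, at 7.94, and the remaining 8 lay at 8.79 to 10.51. Values without these libraries stand beside the results that they move.

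**Figure D1:**
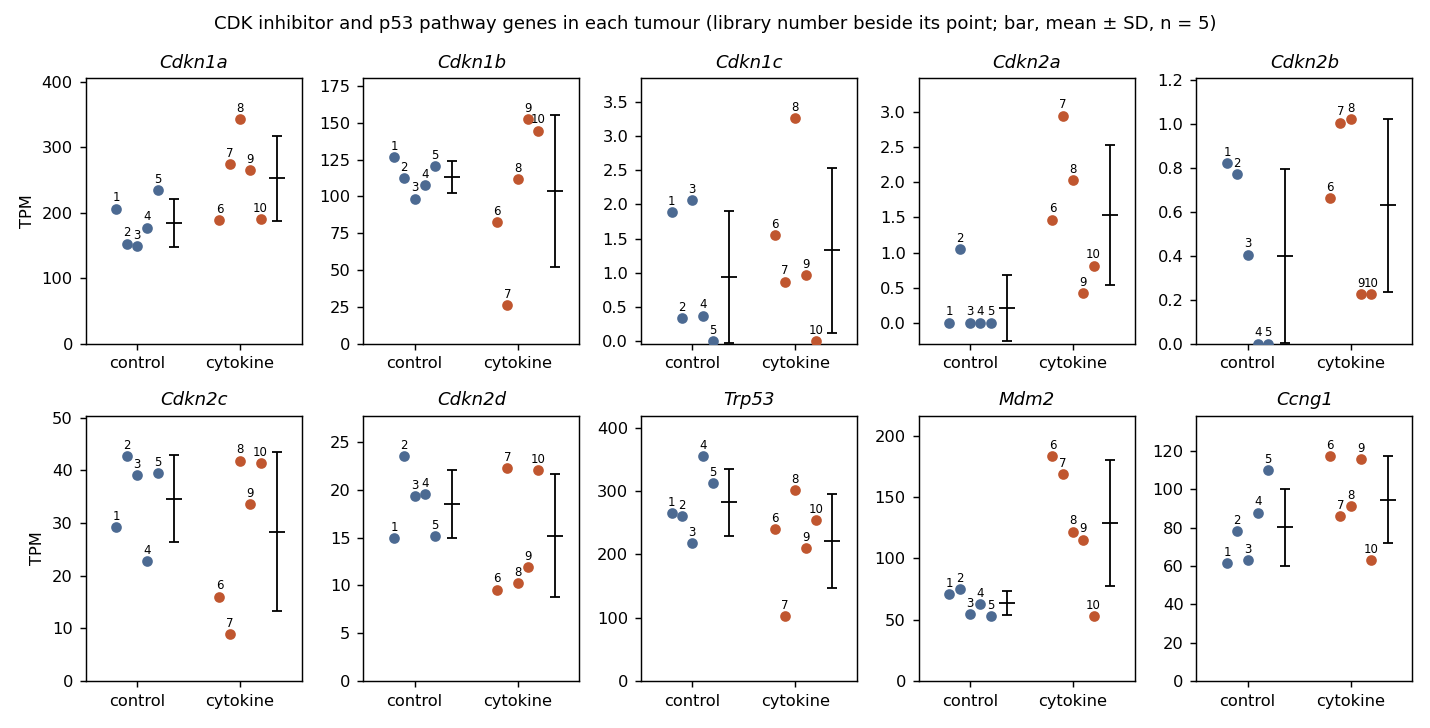
TPM of the 10 genes in each tumour, 1 panel per gene with its own axis; each point is 1 library with its number, and the bar is the group mean ± SD (n = 5). Mdm2 was above the control range in libraries 6 to 9 and within it in library 10, and the groups overlapped in every panel.

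None of the CDK inhibitor and p53 genes that could be tested passed the test in either direction. Testing required 5 or more libraries with a TPM of 1 or more, which 7 of the 10 genes had. Of these, limma called 0 at an adjusted p under 0.05, against 10.4% of all 12497 genes tested, and 1, Mdm2, was at an unadjusted p under 0.05, as were 30.5% of all genes tested. An exact permutation test with the same adjustment called 0 of 7, and 0 of 12497. The groups overlapped in all 7, where 9.23% of tested genes showed no overlap (5.45% higher and 3.78% lower). On the log2(TPM + 1) scale, 3 genes had a higher and 4 a lower mean in cytokine mRNA tumours, and their median change was -0.34, against -0.18 for all tested genes. Calls in all tested genes were 926 higher and 378 lower, or 7.41% and 3.02% of those tested. After rescaling without mitochondrial genes they were 852 and 900, and without the 50 most abundant genes 885 and 572. In bulk tumours, fewer cells of a type and less RNA per cell cannot be told apart.

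Among the CIP/KIP genes, Cdkn1a was the most abundant, with 184 ± 36.5 TPM (SD, n = 5) in control and 253 ± 65.0 TPM in cytokine mRNA tumours. In libraries 1 to 5 it was at 206, 153, 149.5, 177 and 235 TPM, and in libraries 6 to 10 at 189, 275, 344, 265 and 190.3 TPM. Libraries 7, 8 and 9 lay above the control range, while 6 and 10 lay within it. The log2 change was 0.44 ± 0.23 (SE; limma adjusted p = 0.210), with a 95% interval of -0.06 to 0.93. With library quality weights the gene was called, with a log2 change of 0.64 and a limma adjusted p of 0.0333, and it was called in no other of 22 alternatives. Those weights called 2769 of all 12497 tested genes, against 1304 without them. The change of Cdkn1a was above 0 in all 22, from 0.23, after rescaling without mitochondrial genes, to 0.73.

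Cdkn1b, whose product p27 holds resting cells out of the cycle, was steady in control tumours, with 113 ± 10.998 TPM, and scattered in cytokine mRNA tumours, with 104 ± 51.5 TPM. Its values were 127, 112, 98.4, 108 and 121 TPM in libraries 1 to 5. Libraries 6 to 10 had 82.6, 26.1, 112, 153 and 145 TPM. Libraries 9 and 10 were above the control range and 6 and 7 below it. The log2 change was -0.35 ± 0.41 (SE; limma adjusted p = 0.579; 95% interval -1.25 to 0.56). Without library 7, in which melanocyte markers were lowest, it was 0.08, and without libraries 6 and 7 it was 0.26. Cdkn1c, an imprinted gene, was near the lower limit throughout and was not tested, since 4 libraries reached a TPM of 1. Its TPM were 1.88, 0.339, 2.07, 0.371 and 0 in control and 1.55, 0.869, 3.26, 0.960 and 0 in cytokine mRNA tumours.

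The INK4 genes comprised an expressed and a barely detected pair. Cdkn2c, the p18 gene, was at 29.2, 42.7, 39.0, 22.8 and 39.4 TPM in libraries 1 to 5 and at 16.0, 8.92, 41.9, 33.5 and 41.4 TPM in libraries 6 to 10. Libraries 6 and 7 lay below the control range and the other 3 within it. Its log2 change was -0.45 ± 0.41 (SE; limma adjusted p = 0.457; 95% interval -1.35 to 0.44), and without libraries 6 and 7 it was 0.19. Cdkn2d, the p19 gene, was at 14.99, 23.5, 19.3, 19.5 and 15.1 TPM in libraries 1 to 5. In libraries 6 to 10 it was at 9.56, 22.3, 10.3, 11.9 and 22.1 TPM. Libraries 6, 8 and 9 were below all control values, and 7 and 10 within their range. The log2 change was -0.34 ± 0.29 (SE; limma adjusted p = 0.438; 95% interval -0.97 to 0.30). It was -0.49 without library 7, -0.20 without library 6, -0.48 without library 10 and -0.67 without libraries 6, 7 and 10, and with library quality weights it was -0.64 (limma adjusted p = 0.0592).

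Cdkn2a and Cdkn2b, neighbours on chromosome 4, did not pass the filter, with 4 and 2 libraries at a TPM of 1 or more. Cdkn2a was listed at 0 in 4 of 5 control tumours and at 1.05 TPM in library 2. It was above 0 in all 5 cytokine mRNA tumours, at 1.47, 2.95, 2.03, 0.424 and 0.814 TPM, of which 3 exceeded every control value. With no filter on low values its log2 change was 1.04 ± 0.31 (SE; limma adjusted p = 0.0776), which did not pass. The table gives 1 value for the gene, so transcripts for p16 and for ARF cannot be told apart. Cdkn2b was at 0.821, 0.770, 0.405, 0 and 0 TPM in control and at 0.663, 1.01, 1.02, 0.227 and 0.226 TPM in cytokine mRNA tumours, and the groups overlapped. At such values a listed 0 may lie below what a library could show.

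Trp53 itself was abundant in every tumour and not higher on average after cytokine mRNA. In libraries 1 to 5 its level was 266, 261, 218, 355 and 313 TPM. In libraries 6 to 10 it was 241, 103, 302, 209.8 and 254 TPM. Library 7 was the lowest, library 9 lay just below the control range, and the other 3 lay within it. The log2 change was -0.41 ± 0.29 (SE; limma adjusted p = 0.333; 95% interval -1.04 to 0.21), and -0.16 without library 7.

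Mdm2 had the largest change of the 7 tested genes, from 63.3 ± 9.82 to 129 ± 51.4 TPM (SD, n = 5), a 2.03-fold ratio of means. In control tumours it was at 71.0, 75.1, 54.5, 62.7 and 52.96 TPM, a narrow range. Libraries 6 to 9 had 183, 169, 122 and 115 TPM, all above every control value, and library 10 had 53.2 TPM, inside the control range. The log2 change was 0.91 ± 0.31 (SE) with a 95% interval of 0.23 to 1.59, and it missed the threshold (limma adjusted p = 0.0807; exact 2-sided permutation of this gene alone, p = 0.0397). Without library 10 the gene was called, with a log2 change of 1.19 and a limma adjusted p of 0.00342. It was also called without libraries 6, 7 and 10 (log2 change 0.91, limma adjusted p = 0.0222) and with library quality weights (0.84, limma adjusted p = 0.0202). Over all tested genes, calls went from 1304 to 2769 with those weights and were 367 to 3238 with single libraries left out. Without libraries 6 and 7 the log2 change of Mdm2 was 0.53 and the limma adjusted p = 0.335. After rescaling without mitochondrial genes the change was 0.70 (limma adjusted p = 0.101).

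Ccng1 encodes cyclin G1, a p53 target that recruits a phosphatase to MDM2. It was at 61.7, 78.3, 63.1, 87.9 and 110.1 TPM in libraries 1 to 5 and at 117, 85.9, 91.4, 116 and 63.0 TPM in libraries 6 to 10. Libraries 6 and 9 exceeded the highest control and the other 3 lay within the control range. The log2 change was 0.23 ± 0.24 (SE; limma adjusted p = 0.509; 95% interval -0.28 to 0.75), 0.15 without library 6, 0.37 without library 10 and 0.39 without libraries 6, 7 and 10. It was 0.03 after rescaling without mitochondrial genes (limma adjusted p = 0.935) and 0.14 without the 50 most abundant genes. Beside Mdm2, neither Ccng1 nor Cdkn1a, the other members known as direct p53 targets, separated libraries 6 to 9 from all controls.

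The order of the levels differed between the groups. In control tumours it ran from Trp53 (283 TPM) through Cdkn1a (184 TPM), Cdkn1b (113 TPM), Ccng1 (80.2 TPM), Mdm2 (63.3 TPM) and Cdkn2c (34.6 TPM) to Cdkn2d (18.5 TPM). Cdkn1c, Cdkn2b and Cdkn2a followed, at 0.932, 0.399 and 0.211 TPM. In cytokine mRNA tumours it ran from Cdkn1a (253 TPM) through Trp53 (222 TPM), Mdm2 (129 TPM), Cdkn1b (104 TPM), Ccng1 (94.7 TPM) and Cdkn2c (28.3 TPM) to Cdkn2d (15.2 TPM), with Cdkn2a, Cdkn1c and Cdkn2b at 1.54, 1.33 and 0.629 TPM. Neighbours in the control order overlapped in their ranges except Cdkn1a and Cdkn1b, Mdm2 and Cdkn2c, and Cdkn2d and Cdkn1c. Those in the cytokine order overlapped except Ccng1 and Cdkn2c, and Cdkn2d and Cdkn2a. The spread within groups also differed between genes. Cdkn1b had a coefficient of variation of 9.71% in control and 49.7% in cytokine mRNA tumours, Mdm2 of 15.5% and 39.9%, and Ccng1 of 24.9% and 23.9%. Of the 7 tested genes, 2 lay within the control range in each of libraries 6 and 7, 4 in library 8, 1 in library 9 and 6 in library 10. The same share was not counted over all tested genes, so these counts do not set the 7 genes apart from others.

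**Figure D2:**
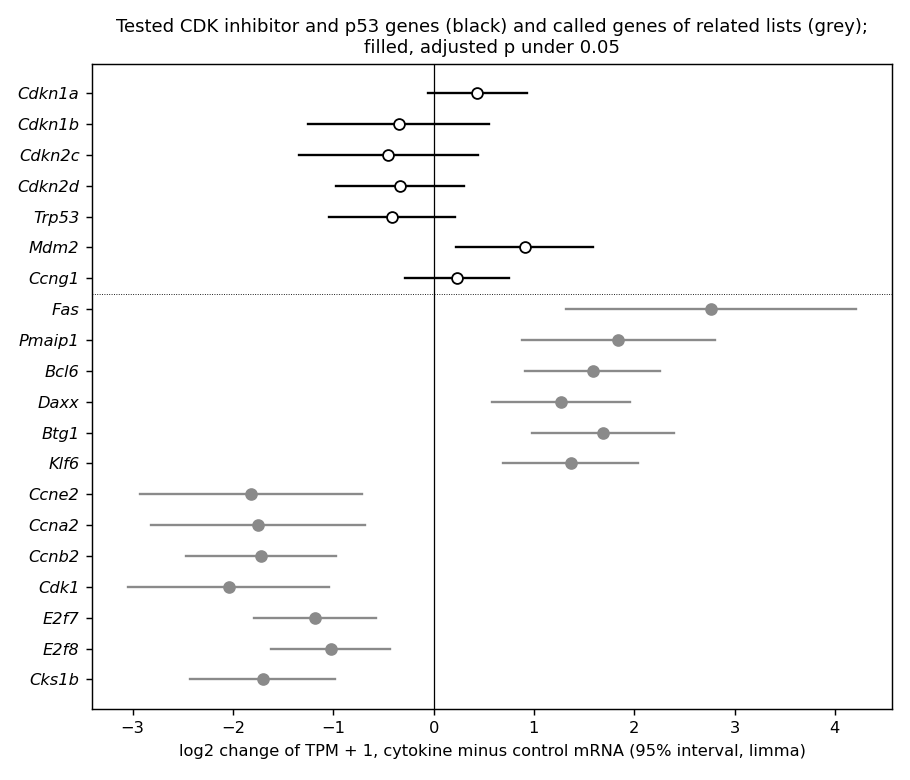
Log2 change of TPM + 1 (cytokine minus control mRNA) with its 95% limma interval for the 7 tested genes in black and for the called genes named in the p53, growth arrest, cyclin and CDK, RB and E2F, and inhibitor turnover lists in grey; filled points have an adjusted p under 0.05. The black intervals include 0 except that of Mdm2, and no black point is filled.

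Division genes gave the other side of the comparison. Of 23 such genes, limma called 17 lower and 0 higher, against 3.02% and 7.41% of all tested genes. A log2 change above 0 was seen in 0 of the 23, and the median was -1.54. At an unadjusted limma p under 0.05 were 22, against 30.5% of all tested genes. Ube2c, the E2 enzyme that works with the anaphase-promoting complex, fell from 165 ± 14.6 to 46.9 ± 44.3 TPM (SD, n = 5), Cdc20, an activator of that complex, from 40.4 ± 8.77 to 12.3 ± 12.7 TPM, and Tyms, thymidylate synthase, from 93.3 ± 7.87 to 34.3 ± 34.3 TPM. Dropping single libraries ended the calls of Cdc20 and Tyms in 8 and 9 of 10 cases and that of Ube2c in none. On the log2 scale the list mean was 6.23 to 6.58 in control tumours and 4.56, 4.08, 4.91 and 4.64 in libraries 6 to 9. In library 10 it was 6.33, inside the control range. The count of division genes called became 7, 5, 7, 4 and 5 when control libraries 1, 2, 3, 4 and 5 were dropped in turn. Over all tested genes the calls were then 920, 577, 680, 554 and 548, against 1304 with all 10. Dropping libraries 6, 7, 8, 9 and 10 in turn gave 3, 8, 5, 4 and 22 division genes, where calls over all tested genes were between 367 and 3238. The count of division genes was 0 without libraries 6 and 7 together and 22 without libraries 6, 7 and 10. Without libraries 6 and 7, 20 of all 12497 tested genes were called, so that 0 says little about the list.

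Set beside the division genes, Mdm2 was high in the 4 tumours with the low division means and at control level in the 1 cytokine mRNA tumour whose division mean was at control level. Cdkn1a followed this in libraries 7, 8 and 9, but in library 6 it was within the control range although the division mean was 4.56. Cdkn1b did not: its 2 highest values were in library 9, with a low division mean, and library 10, with a high one.

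**Figure D3:**
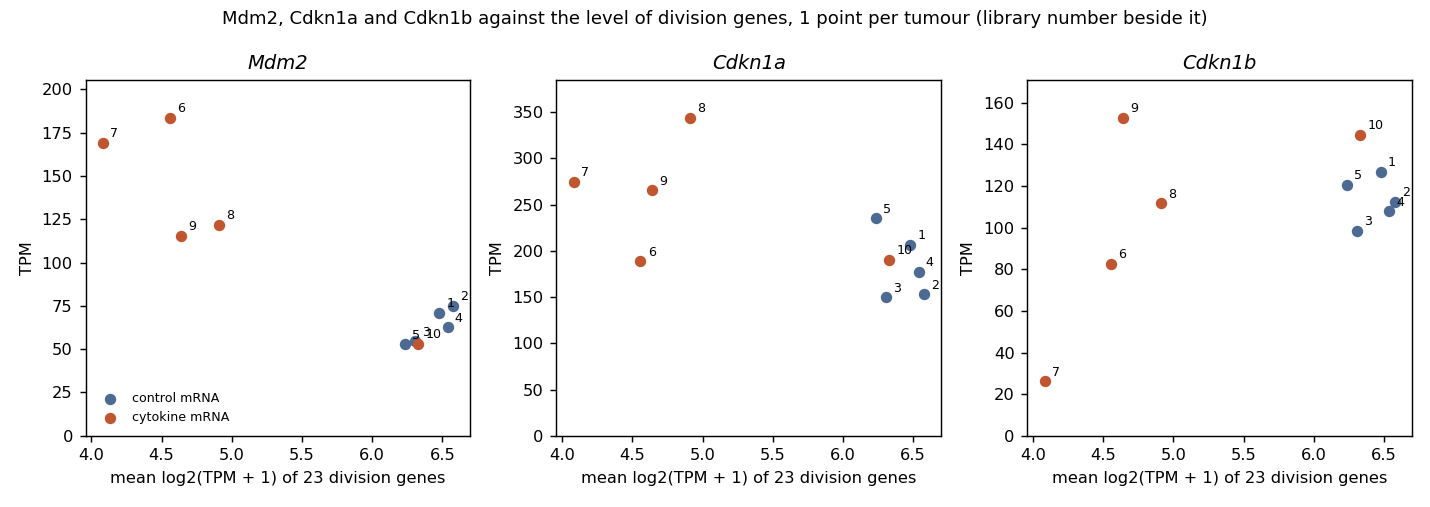
TPM of Mdm2, Cdkn1a and Cdkn1b (vertical axes) against the mean log2(TPM + 1) of 23 division genes (horizontal axes), 1 point per library. Libraries 6 to 9 lie at division means of 4.08 to 4.91 and library 10 lies among the controls for the division mean and for Mdm2.

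Ratios within a library do not depend on how the library was scaled. They were chosen after the values were seen and carry no test. The TPM ratio of Mdm2 to Trp53 was 0.169 to 0.288 in control tumours. It was 0.763, 1.64, 0.404 and 0.550 in libraries 6 to 9 and 0.209 in library 10, so libraries 6 to 9 lay above all controls. The TPM ratio of Cdkn1a to Cdk1, the mitotic kinase, was 0.680 to 0.840 in control tumours. It was 4.13, 12.4, 5.01 and 5.99 in libraries 6 to 9 and 0.987 in library 10, which also lay above every control. Its denominator, Cdk1, was at 193.2 to 279.9 TPM in controls and at 45.7, 22.2, 68.5 and 44.3 TPM in libraries 6 to 9. Library 10 had 192.7 TPM, just below the control range.

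**Figure D4:**
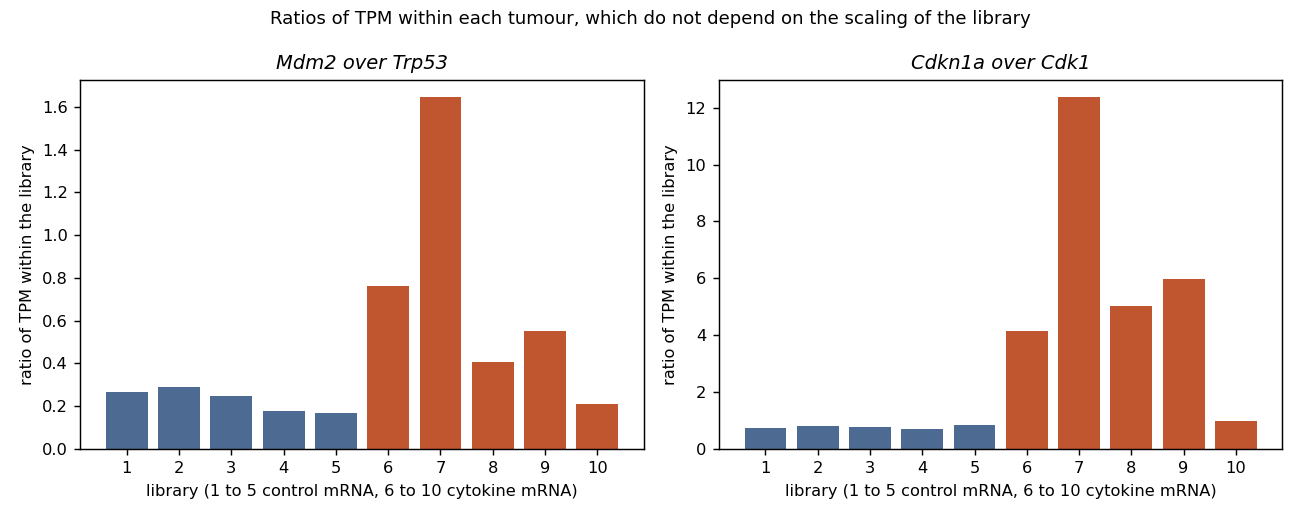
Ratio of TPM within each library for Mdm2 over Trp53 and Cdkn1a over Cdk1, blue for control and orange for cytokine mRNA tumours; bars start at 0. Libraries 6 to 9 exceed every control in both panels. Library 10 is within the control range for Mdm2 over Trp53, at 0.209, and above it for Cdkn1a over Cdk1, at 0.987.

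Of 30 other p53 targets 29 could be tested, of which 15 had a log2 change above 0 (median 0.01). Limma called 2 higher and 0 lower, and 7 were at an unadjusted limma p under 0.05. Fas, a death receptor gene, rose from 4.004 ± 4.50 to 26.2 ± 11.9 TPM (SD, n = 5), a change of 2.77 ± 0.66 in log2 (SE; limma adjusted p = 0.0260). Pmaip1, the gene of the BH3-only protein NOXA, rose from 0.721 ± 0.530 to 5.85 ± 4.15 TPM, with no overlap between groups (limma adjusted p = 0.0260). Leaving out single libraries ended these calls in 7 and in 6 of 10 cases. Both genes are also known to respond to interferons. The share called higher is close to the 7.41% of all tested genes, and that at an unadjusted p under 0.05 is below their 30.5%. The count was 5 without library 10, 1 without library 7, and 0 without any single one of libraries 2, 4, 5, 6, 8 and 9. Calls over all 12497 tested genes were 367 to 3238 with single libraries left out, against 1304 with all 10.

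Among regulators and relatives of p53, 14 of 16 could be tested, of which 8 had a log2 change above 0 (median 0.18). Limma called 2 higher and 0 lower, against 7.41% and 3.02% of all tested genes. The count was 1 without any single one of libraries 1, 2, 3, 5, 6, 7, 8 and 9, and without library 10, as after rescaling without mitochondrial genes, 2 were called higher and 1 lower. For all tested genes, 1304 in the main fit became 367 to 3238 with single libraries left out, and 852 higher and 900 lower after that rescaling. Bcl6, a repressor known to act on Trp53, rose from 10.0 ± 2.71 to 33.3 ± 11.8 TPM without overlap between groups, and was called whichever of the 10 libraries was dropped. Daxx, which binds MDM2 and is known as interferon-inducible, rose from 15.5 ± 5.11 to 39.3 ± 13.9 TPM, a call that ended in 8 of 10 such cases. Mdm4, the relative of Mdm2 that also inhibits p53, was named after its values were seen. It was at 108 ± 12.4 and 124 ± 26.8 TPM, a change of 0.19 ± 0.20 in log2 (SE; limma adjusted p = 0.529).

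Growth arrest genes outside the p53 pathway numbered 22, of which 20 could be tested and 10 had a log2 change above 0 (median 0.03). Limma called 2 higher and 0 lower, against 7.41% and 3.02% of all tested genes. These counts depended on the libraries and on scaling. Without library 10, 6 were called higher and 4 lower, with library quality weights 7 and 2, without library 7 or after rescaling without mitochondrial genes 2 higher with 1 and 2 lower respectively, and without library 4 or library 6 the count was 1. Calls over all tested genes ranged from 367 to 3238 with single libraries left out. They were 2769 with library quality weights, and 852 higher and 900 lower after the rescaling, against 1304 in the main fit. Btg1, an antiproliferative gene expressed in resting lymphocytes, rose from 17.0 ± 5.69 to 58.4 ± 19.3 TPM, without overlap, and was called whichever library was dropped. Klf6, a zinc finger factor known to raise Cdkn1a, rose from 56.0 ± 15.9 to 148 ± 57.6 TPM, also without overlap, and its call ended in 2 of 10 cases.

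Of 15 genes of cyclins, CDKs and their partners, 3 had a log2 change above 0. Limma called 4 lower and 0 higher, against 3.02% and 7.41% of all tested genes. The count was 7 without library 10, 2 without any single one of libraries 1, 2, 3, 7 and 8, and 1 without any single one of libraries 4, 5, 6 and 9. Here too, calls over all tested genes were 367 to 3238 with single libraries left out, against 1304 with all 10. Cdk1 fell from 242 ± 44.2 to 74.7 ± 68.0 TPM, a mean that library 10 raised from 45.2 TPM, and its call ended in 4 of 10 cases with single libraries dropped. The mitotic cyclin gene Ccnb2 fell from 72.3 ± 3.54 to 24.6 ± 16.8 TPM. The S phase cyclin genes Ccne2 and Ccna2 fell by 1.82 and by 1.75 on the log2 scale, calls that each ended in 9 of 10 cases. Ccna2, Ccnb1, Ccnb2 and Cdk1 also stand in the list of division genes. Of 17 RB and E2F genes, 5 had a log2 change above 0, and limma called 2 lower and 0 higher. The count called was 5 without library 10, 6 with library quality weights, 1 without library 4 or 7, and 0 without any single one of the other 7 libraries. The 2 called were the repressor genes E2f7, from 44.8 ± 11.4 to 19.7 ± 7.79 TPM, and E2f8, from 38.8 ± 5.96 to 19.6 ± 9.11 TPM. Their calls ended in 7 and 9 of 10 cases. Of 13 genes of CDK inhibitor turnover, 3 had a log2 change above 0, and limma called 1, Cks1b, lower and 0 higher. Without library 10, 6 were called lower and 1 higher, with library quality weights 4 and 1, and after rescaling without mitochondrial genes 3 and 0. Cks1b, the cofactor with which SKP2 marks p27 for destruction, was at 56.2 ± 10.1 TPM in control and 18.6 ± 12.8 TPM in cytokine mRNA tumours. It was called whichever library was dropped. Over all tested genes, library quality weights called 2769, and rescaling without mitochondrial genes gave 852 higher and 900 lower. Without libraries 6 and 7 together, limma called 0 genes in each of the 6 lists from other p53 targets to inhibitor turnover, with 2 to 6 genes a list at an unadjusted p under 0.05. That fit called 20 of all 12497 tested genes, so a count of 0 in lists of this size says little about them.

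The T cell list mean was above its control range, 0.28 to 1.94, in all 5 cytokine mRNA tumours. The macrophage list mean was 7.22 to 8.62 in libraries 6 to 9, against 2.66 to 5.27 in controls. Mdm2 was above its own control range in libraries 6 to 9. Fibroblast list means there were 5.86 to 6.08, against 3.11 to 6.00 in controls, and endothelial means 4.07 to 4.43, against 3.56 to 4.33. Cdkn1a was within its control range in library 6, where the T cell list mean was 5.82. Of 7 tested T cell genes of a list of 10, all 7 had a log2 change above 0 and 6 were called higher, against 7.41% of all tested genes. The summed TPM of the 10 was 3.83 to 47.5 in control and 63.1 to 3683 in cytokine mRNA tumours, with Cd28 at 0 in all controls. Of 10 macrophage and monocyte genes, all 10 had a log2 change above 0 and 7 were called higher. Their sum was 136 to 558 TPM in control and 727 to 7177 TPM in cytokine mRNA tumours. Fibroblast genes had 0 of 9 called by limma and 1 at an unadjusted p under 0.05, endothelial genes 0 of 7 and 0, and melanocyte genes 0 of 10 and 0. The melanocyte list had a median log2 change of -1.86, with 1 of its 10 genes above 0. The 7 keratinocyte genes were below the filter, with sums of 0.628 to 3.62 TPM in control and 1.46 to 9.46 TPM in cytokine mRNA tumours, and with Krt14 and Krt1 at 0 in all controls. The T cell list mean of library 10 was 2.18, the lowest among cytokine mRNA tumours but above the highest control, 1.94. Its macrophage list mean was 5.27, equal at this precision to the highest control. The part of these cells in the values of the 10 genes was not tested.

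**Figure D5:**
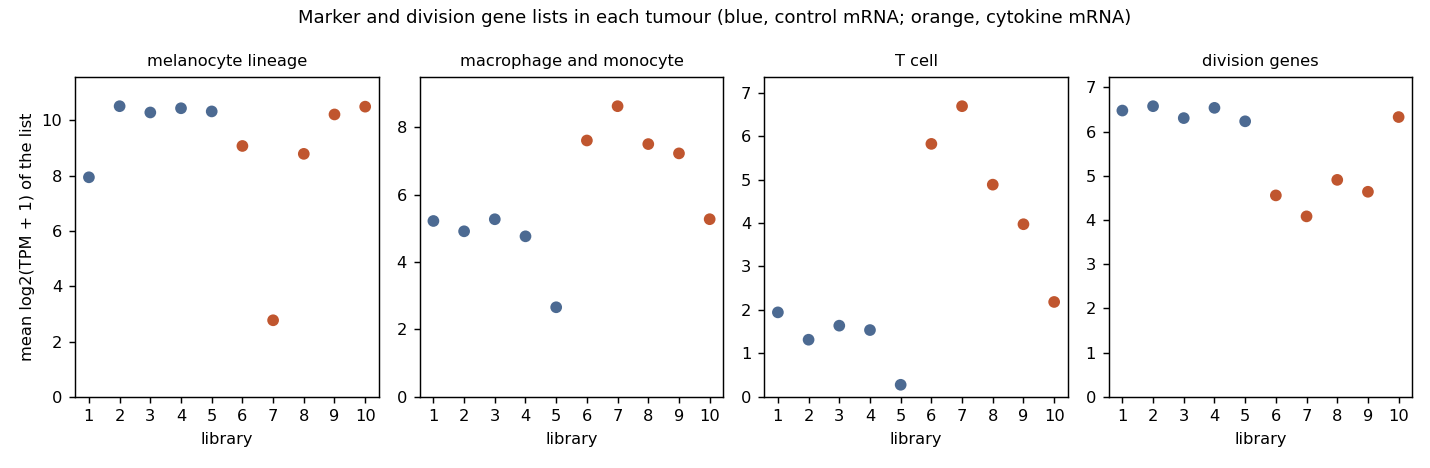
Mean log2(TPM + 1) of melanocyte, macrophage and monocyte, T cell and division gene lists in each library, blue for control and orange for cytokine mRNA tumours. Library 7 has the lowest melanocyte mean, 2.77, and the highest T cell mean, 6.69, and library 10 has a division mean of 6.33, within the control range.

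The most abundant markers are given for reference. Trac and Cd3e, T cell receptor complex genes, rose from 9.45 ± 8.73 and 4.27 ± 2.70 TPM to 483 ± 642 and 329 ± 421 TPM. Cd68 and Lyz2, of macrophages, rose from 122 ± 25.7 and 80.3 ± 39.9 TPM to 997 ± 584 and 995 ± 828 TPM. Gpnmb and Tyrp1, of the melanocyte list, were at 7015 ± 3016 and 4659 ± 2380 TPM in control and at 9808 ± 5765 and 3327 ± 3316 TPM in cytokine mRNA tumours. In library 7, where the macrophage list mean was highest, at 8.62, Tyrp1 was at 3.16 TPM but Gpnmb still at 1435 TPM. Neither melanocyte gene passed the test, and Gpnmb was the 1 gene of its list with a change above 0. The fibroblast genes Thy1, also a T cell gene in mice, and Col3a1 were at 48.1 ± 30.5 and 245 ± 143 TPM in control and at 535 ± 656 and 271 ± 212 TPM in cytokine mRNA tumours, and the endothelial genes Eng and Cdh5 at 156 ± 12.9 and 38.1 ± 7.91 TPM against 159.97 ± 85.3 and 29.1 ± 6.05 TPM.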

How the data were processed

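The authors deposited 1 table of TPM, with a row per gene symbol and a column per tumour, scaled to the same total in each. PolyA RNA, treated with DNase at extraction, was made into stranded NuGEN libraries, per the labels' protocols. Reads were aligned with STAR, and the build named is GRCh38, a human build, per the submitters' processing notes, although the symbols are those of mouse, so the build is not settled and the only coordinates given are RefSeq's. Counter, annotation, filters: not given in the sources used here.

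Columns were matched to tumours by their titles. Of 22329 genes, 12497 reached a TPM of 1 in 5 or more libraries. They were tested on log2(TPM + 1) in limma (version 3.58.1, R version 4.3.3; eBayes with a trend, 2-sided, Benjamini-Hochberg over all genes tested, called under 0.05). Fold changes on this scale understate the change of low genes. The fit and the motif search were tested on simulated data. TPM are shares, so a rise of abundant genes lowers all others. Each library is labelled as a separate tumour, and p-values measure the spread between these samples.

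The 10 genes, the lists and the 22 alternatives were chosen with earlier results of these data known. Named were the 10 genes and, of each related list, up to 4 called genes with the largest change, and of marker lists the 2 most abundant. Mdm4, Gdf15 and Sesn1 were added after their values were seen. Cop1 was found under its older symbol Rfwd2.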

Additional observations from a re-analysis of the deposited data

Results flagged for a closer look

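Single libraries stood apart from the rest of their group of 5 in 19 of 108 groups of values, where chance gives about 1 in 20. All values here are on the log2(TPM + 1) scale. Of the 10 genes described, Cdkn2a was flagged in control library 2, at 1.04 against 0 in the other 4 controls.

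Library 10 stood apart among the cytokine mRNA tumours in Fas (2.94), Btg1 (4.76), Gdf15 (0.90) and the mean of the fibroblast list (3.99), all lower than the other 4, and in E2f8 (5.20), Cks1b (5.41) and Ube2c (6.99), all higher. Library 7 stood apart in the same group in the melanocyte list mean (2.77) and Tyrp1 (2.06), both lower, and in Sfn (1.73), which was higher. Control library 1 was low in the melanocyte list mean (7.94), Gpnmb (10.97) and Tyrp1 (8.99), and high in Sesn1 (3.68). Control library 5 was low in the RB and E2F list mean (4.57), the macrophage and monocyte list mean (2.66), Lyz2 (3.86) and Col3a1 (4.80).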

How the results depend on the processing

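Of the 22 alternatives, 19 called 0 of the CDK inhibitor and p53 genes. Library quality weights called 2 (Cdkn1a and Mdm2), leaving out libraries 6, 7 and 10 called 1 (Mdm2), and with single libraries left out the count was 0 to 1. The count of division genes called was 8 with no filter on low values, 0 by the exact permutation test (22 at an unadjusted p under 0.05; its smallest possible p is 0.00794), 0 without libraries 6 and 7, and 3 to 22 with single libraries left out. For all genes the count of 1304 became 846 with no filter, 2769 with quality weights, 0 by the exact permutation test (3785 at an unadjusted p under 0.05), 20 without libraries 6 and 7, and 367 to 3238 with single libraries left out. The change of Cdkn1b was above 0 with quality weights (0.10), without library 7 (0.083; -0.54 to 0.083 with single libraries left out), without libraries 6 and 7 (0.26) and without libraries 6, 7 and 10 (0.21). That of Cdkn2c was above 0 without libraries 6 and 7 (0.19) and without libraries 6, 7 and 10 (0.15), and that of Mdm4 was -0.018 after rescaling without mitochondrial genes. The cause of these differences was not tested. Scaling moved the median log2 change over all genes from -0.18 to -0.03 (median ratios), -0.27 (50 most abundant left out) and -0.36 (mitochondrial left out), and none of the 3 scalings turned the sign of any of the 7 genes. No paired analysis was possible because no library number is shared between the groups. The unknown depth limits what the values of Cdkn1c, Cdkn2a and Cdkn2b show.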

Other observations

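Outside the named genes, 2 further p53 targets were looked at after their values were seen. Gdf15, a stress-induced cytokine gene, was at 1.24 ± 0.504 TPM (SD, n = 5) in control and 3.94 ± 1.78 TPM in cytokine mRNA tumours, with libraries 6 to 9 above every control and library 10 at 0.867 TPM. Its log2 change of 1.05 ± 0.37 (SE) missed the threshold (limma adjusted p = 0.0845), and it was called without library 10 (1.38, limma adjusted p = 0.00521). With single libraries left out, calls over all tested genes were 367 to 3238, against 1304 with all 10. Sesn1, a stress gene that restrains mTORC1 signalling, was at 7.05 to 11.8 TPM in control tumours. It was at 15.6, 500.1, 12.0, 6.94 and 180.4 TPM in libraries 6 to 10, with its 2 high values in libraries 7 and 10. Its log2 change was 2.25 ± 1.003 (SE; limma adjusted p = 0.155), and it was called in 0 of 22 alternatives.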
